A study of Mus musculus with 28 samples.

Results

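The genes of the cornified envelope and of the epidermal barrier were followed in skin of mice that had received allogeneic or syngeneic spleen cells. They were chosen by name: every gene whose symbol begins with Sprr (13 on the arrays) or Lce (14), and 25 others that encode loricrin, involucrin, the filaggrin family, suprabasal keratins, crosslinking enzymes, desmosomal proteins, proteases and lipid enzymes of the outer epidermis. The arrays held 52 such genes of 19532 named genes. Of these, 44 had a ratio from 2 or more mice per group and could be tested, among 14822 genes tested in all. The other 8, Abca12, Dsg1a, Flg, Krt2, Lce3f, Rptn, Sprr2d and Sprr3, are given by their values where described. Cers3, a ceramide synthase of the same list, has no probe in the array annotation used.

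Total skin RNA of 24 mice was compared with a reference RNA pooled from mouse cell lines on 28 arrays with 2 colours. All recipients were BALB/c mice lacking Rag2 (rag2-/-), which have no T or B cells of their own, and were taken 2 weeks after they received splenocytes. Allogeneic cells (allo) came from B10.D2 mice and cause chronic graft-versus-host disease, and syngeneic cells (syn) from balb/c mice served as controls. Recipients that lacked only Rag2 comprised 5 allo and 4 syn mice. Recipients that also lacked Il13 (rag2-/- IL13-/-) comprised 4 allo and 4 syn mice. Recipients that also lacked Il4ra (rag2-/- IL4Ra-/-), a receptor chain that IL-4 and IL-13 share, comprised 4 allo and 3 syn mice. The labels name no deletion in the donor cells, and no group without transferred cells was analysed here. Each value is a log2 ratio, skin over reference, so a difference of 1 is 2-fold. Levels of different genes are not set against each other, since each probe has its own response. Of 16 epidermal genes, 16 lay above 0 with a median of 4.97; since the same genes helped to set the sign of the ratios, they are no separate check of the tissue.

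Keratinocytes that leave the basal layer build an insoluble protein shell under the plasma membrane, the cornified envelope, which transglutaminases crosslink from involucrin, loricrin, small proline-rich (SPRR) and late cornified envelope (LCE) proteins. Filaggrin bundles the keratin filaments inside, and lipids processed by lipoxygenases seal the outside. SPRR proteins are known to rise in wounded and inflamed epidermis, whereas loricrin, filaggrin and the LCE1 proteins mark undisturbed terminal differentiation. Most of these genes sit together in the epidermal differentiation cluster on mouse chromosome 3, where 33 of the 52 members lie. IL-4 and IL-13 are known to lower loricrin and filaggrin in cultured human keratinocytes.

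Promoters of 6 genes of this cluster are shown because they are the members that rose with the smallest p in Rag2-/- recipients (Sprr2h, Sprr1b, Sprr2e) and 3 that fell (Lce1b, Lor, Flg2). Each run is the 250 bases before the annotated start, 5′ to 3′ on the gene's strand, from RefSeq on assembly GRCm38.p6. Capitals mark matches to 4 of 6 searched motifs: TATAAA (the TATA box), TGANTCA (bound by AP-1), CCACCC (bound by KLF factors) and AGGAAG (bound by ETS factors), on either strand.
Sprr2h (chr3:92385435-92385684, plus strand): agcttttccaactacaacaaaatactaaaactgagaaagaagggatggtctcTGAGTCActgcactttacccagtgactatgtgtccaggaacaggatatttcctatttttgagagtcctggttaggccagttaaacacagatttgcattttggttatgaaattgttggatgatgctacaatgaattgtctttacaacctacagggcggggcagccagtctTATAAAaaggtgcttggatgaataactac
Sprr1b (chr3:92438780-92439029, minus strand): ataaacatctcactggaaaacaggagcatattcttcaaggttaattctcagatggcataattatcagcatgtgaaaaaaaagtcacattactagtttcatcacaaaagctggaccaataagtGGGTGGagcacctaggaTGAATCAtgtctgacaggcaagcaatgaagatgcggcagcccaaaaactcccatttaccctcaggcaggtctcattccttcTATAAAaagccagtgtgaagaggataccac
Sprr2e (chr3:92351893-92352142, plus strand): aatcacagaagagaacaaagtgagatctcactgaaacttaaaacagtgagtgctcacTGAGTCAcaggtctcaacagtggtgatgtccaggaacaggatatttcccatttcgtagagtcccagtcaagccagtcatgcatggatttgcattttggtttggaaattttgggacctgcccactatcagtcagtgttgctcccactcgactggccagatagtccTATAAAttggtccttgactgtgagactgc
Lce1b (chr3:92656927-92657176, minus strand): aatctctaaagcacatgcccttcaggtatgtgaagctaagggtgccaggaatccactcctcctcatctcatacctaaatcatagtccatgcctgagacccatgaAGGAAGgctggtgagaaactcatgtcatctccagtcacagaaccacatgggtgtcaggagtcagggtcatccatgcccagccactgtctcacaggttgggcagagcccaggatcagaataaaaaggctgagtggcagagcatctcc
Lor (chr3:92083143-92083392, minus strand): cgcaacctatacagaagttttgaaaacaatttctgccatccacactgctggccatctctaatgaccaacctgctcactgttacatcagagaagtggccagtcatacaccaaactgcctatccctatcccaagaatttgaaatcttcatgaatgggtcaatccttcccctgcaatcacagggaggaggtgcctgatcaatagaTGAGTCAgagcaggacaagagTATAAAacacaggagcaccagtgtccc
Flg2 (chr3:93197023-93197272, plus strand): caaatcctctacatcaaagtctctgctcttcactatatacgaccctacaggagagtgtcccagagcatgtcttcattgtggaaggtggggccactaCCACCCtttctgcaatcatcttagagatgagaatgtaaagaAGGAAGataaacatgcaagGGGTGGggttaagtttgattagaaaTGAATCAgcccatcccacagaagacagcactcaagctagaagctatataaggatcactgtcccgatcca
The AP-1 letters began 198 bases before the start of Sprr2h, 193 before Sprr2e, 111 before Sprr1b, 69 before Flg2 and 48 before Lor. They were absent from the Lce1b window, which held 1 ETS match. RefSeq promoters were found for 44 of the 52 members, and for 55 genes when family members without a probe are counted. AP-1 letters stood in 9 of 14 Sprr promoters (64.3%), in 0 of 13 Lce1 and 0 of 6 Lce3 promoters, and in 6.87% of 27025 promoters of the same length. TATAAA stood in 10 of 14 Sprr promoters (71.4%), in 2 of 13 Lce1 promoters and in 12.97% of all. ETS letters stood in 7 of 14 Sprr and 7 of 13 Lce1 promoters against 29.2% of all, and KLF letters in 5 of 14 and 1 of 13 against 27.7%. The interferon-related letters GAAANNGAA occurred in 4 of 14 Sprr promoters and 7.16% of all, and TTCNNNGAA, bound by STAT factors, in 1 of 14 and 7.18%. Both classes held AP-1 letters, since Lor and Flg2 fell and the 3 Sprr genes rose. Sprr promoters resemble each other by descent, so they are not separate instances, and a match is a description and not a binding site.

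In Rag2-/- recipients, some members were higher and others lower in allo than in syn mice. Of the small proline-rich genes 6 rose, with the largest estimates for Sprr2h (9.98-fold) and Sprr1b (7.12-fold). These folds rest on syn ratios near 0, and Sprr2h, Sprr1b and Sprr2e could not be fitted when dim values shared by many probes were taken as missing. Loricrin, filaggrin-2, 7 Lce1 genes and genes of several other roles fell by 1.44- to 2.37-fold. In all, 6 of 44 tested members were higher and 14 lower at an adjusted p under 0.05, beside 12.6% of all genes higher and 15.6% lower in the same comparison. As shares of the 44 members, these are 13.6% higher and 31.8% lower. The share higher is near that of all genes, so the count of rises is not a result about the members as a whole. With quantile normalization, or with the first array of each mouse, every fall except that of Sprr2a1 lost its call. Of all genes, 26.7% and 28.1% were called in either direction there. The median member difference was -0.43, against -0.08 over all genes. In whole skin, fewer cells of a type and less RNA per cell cannot be told apart.

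**Figure D1:**
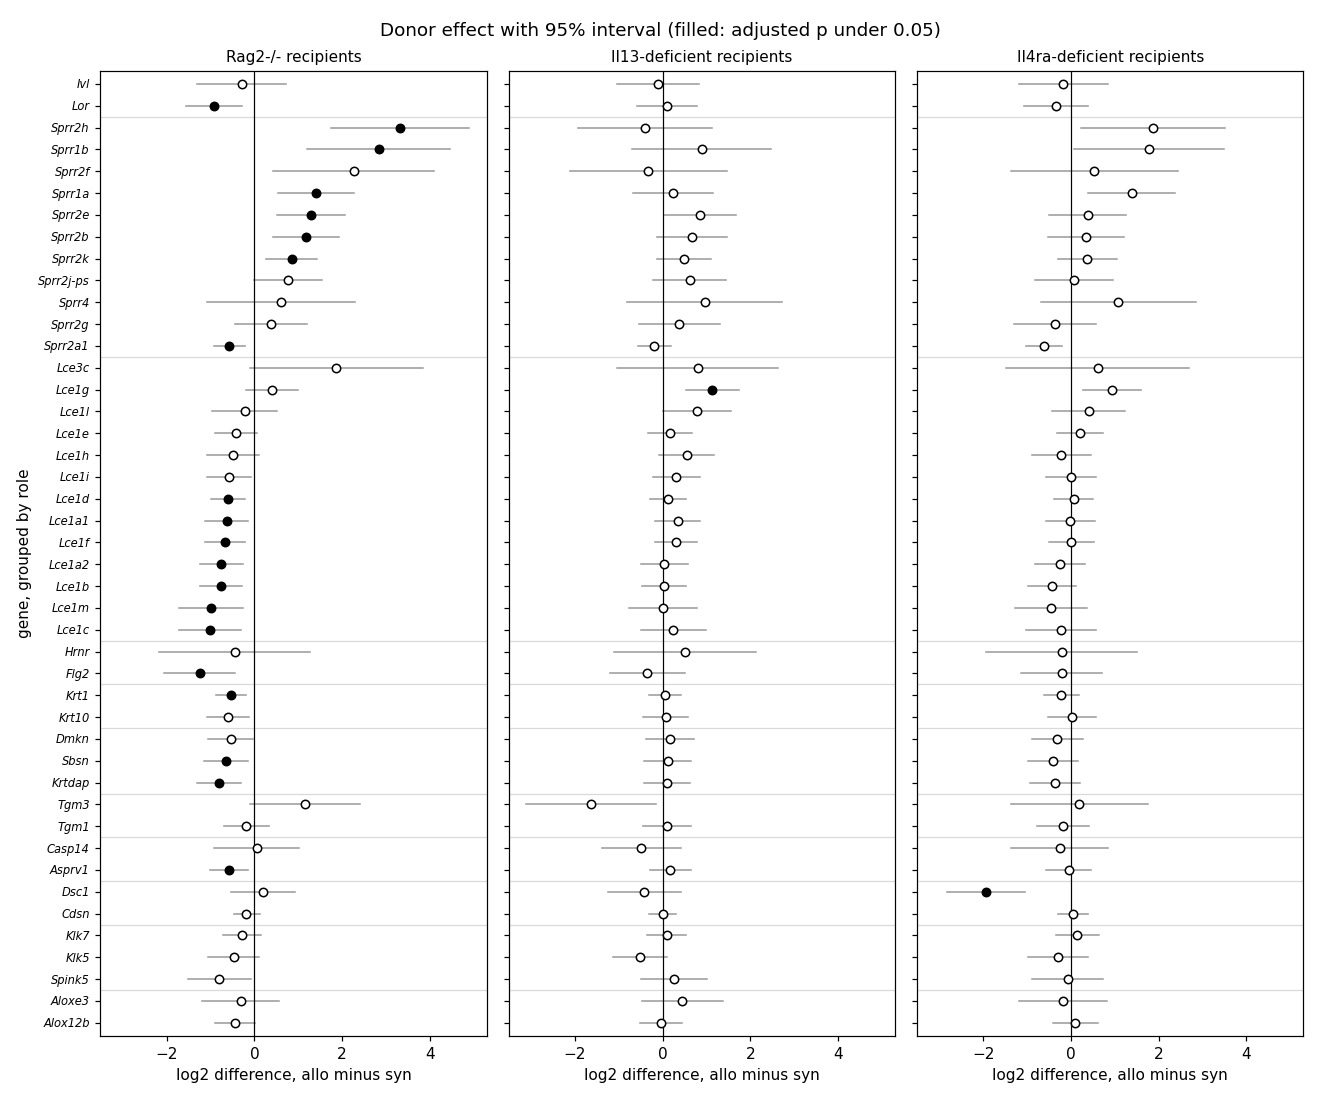
Difference in log2 (skin / reference) between allo and syn mice for the 44 tested members, grouped by role, in 3 kinds of recipient; points are limma estimates, bars 95% intervals, and filled points have an adjusted p under 0.05. In Rag2-/- recipients the Sprr genes other than Sprr2a1 lie to the right of 0 and 11 of 12 Lce1 genes to the left.

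The small proline-rich proteins, short cross-bridging proteins of the envelope, gave the largest rises. Of 11 tested Sprr genes, 10 had a difference above 0 in Rag2-/- recipients, 6 passed the test upward and 1 downward, with a median of 1.18. The calls are 54.5% and 9.09% of the 11, against 12.6% and 15.6% of all genes. Sprr2h read 0.01, 0.23 and 0.43 in the 3 syn Rag2-/- mice that gave a ratio and 1.91, 3.64, 3.74, 3.74 and 4.68 in the 5 allo mice. The groups did not overlap (difference 3.32, SE 0.76, adjusted p = 0.00297). Sprr1b read 0.18, 0.40 and 0.94 in 3 syn mice and 2.49, 2.54, 3.69, 3.97 and 4.0 in the allo mice. All allo values again lay above all syn values (difference 2.83, SE 0.78, adjusted p = 0.0110). Sprr2e read 0.59, 0.76, 0.81 and 1.08 in syn and 1.09, 1.83, 2.00, 2.60 and 3.01 in allo mice. The highest syn and the lowest allo value nearly met, without overlap (difference 1.30, SE 0.37, adjusted p = 0.0134). Sprr1a, a precursor long used as a marker of injured epithelium, read 1.16, 2.39, 2.46 and 2.66 in syn and 2.99, 3.24, 3.38, 4.07 and 4.13 in allo mice, without overlap (difference 1.40, SE 0.42, adjusted p = 0.0164).

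Sprr2b (difference 1.18) and Sprr2k (difference 0.85) also passed the test. Sprr2f (2.26, adjusted p = 0.0617), Sprr2j-ps (0.77), Sprr4 (0.60) and Sprr2g (0.37) did not. Mice 5704 and 6154 had the highest values among allo Rag2-/- mice for Sprr2b (2.32 and 2.28), Sprr2e (3.01 and 2.60), Sprr2k (2.19 and 1.62) and Sprr2j-ps (2.95 and 3.06). The Sprr2 genes are near-identical copies, so probes may read several of them, and their rises are not separate measurements. Sprr2d, which was not tested, read 1.18 in the 1 syn Rag2-/- mouse that gave a ratio and 3.63, 4.30, 4.86 and 6.11 in 4 allo mice. Sprr3 lay between -0.65 and 0.94 in the 11 mice of all groups that gave a ratio.

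Sprr2a1 depended on its probe. The probe measured in all 24 mice lay near 0 in every group (group means -0.62 to 0.04) and gave the 1 Sprr fall (difference -0.57, SE 0.17, adjusted p = 0.0182). The other probe, measured in 22 mice, rose. It read 1.77, 1.90 and 2.63 in syn and 3.53, 4.0, 4.10, 4.21 and 4.55 in allo Rag2-/- mice (difference 1.98). In Il13-deficient mice the same probe read 0.98, 1.22, 1.76 and 1.98 in syn and 2.29, 3.10, 3.79 and 4.39 in allo mice (difference 1.91). In Il4ra-deficient mice it read -0.47 and 0.43 in syn and 0.98, 2.34, 2.83 and 3.74 in allo mice (difference 2.49). Donor groups did not overlap in any of the 3 recipients, and with the highest-ratio probe of each gene, an alternative chosen after seeing the data, limma's adjusted p was 0.00614, 0.00971 and 0.0124. Which probe reads Sprr2a1 was not tested. The gene's direction is therefore not settled by these arrays.

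**Figure D2:**
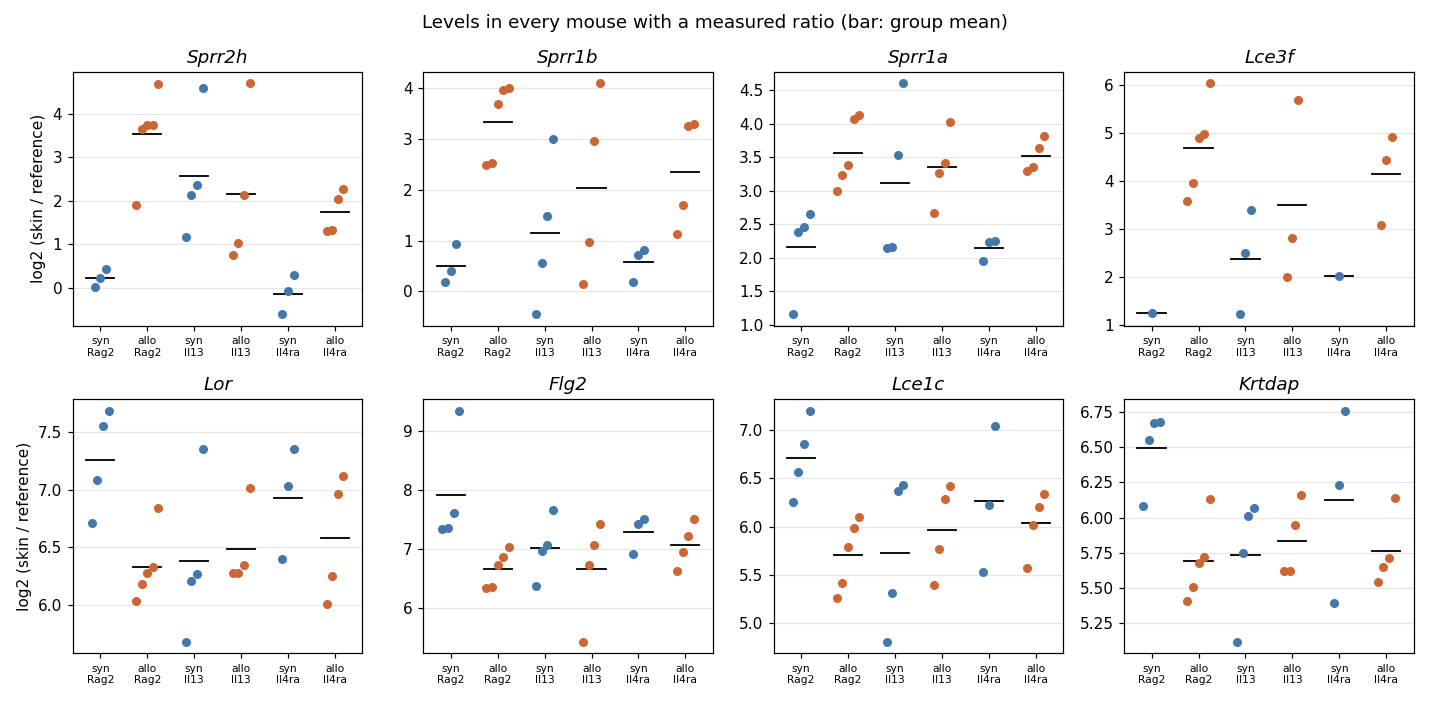
Level, as log2 (skin / reference), of 8 members in every mouse that gave a ratio (points; blue syn, orange allo) with the group mean (bar). Sprr2h, Sprr1b, Sprr1a and Lce3f lie higher in allo than in syn Rag2-/- mice, and Lor, Flg2, Lce1c and Krtdap lower on average.

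Late cornified envelope (Lce1) genes fell or did not pass. All 12 Lce1 genes were tested in Rag2-/- recipients, and 7 fell, 0 rose and 5 did not pass, with a median difference of -0.62. The falls are 58.3% of the 12, against 15.6% of all genes lower. The 12 genes were read in the same mice, so their shared direction is not 12 separate results. Lce1c read 6.25, 6.56, 6.85 and 7.20 in syn and 5.26, 5.42, 5.79, 5.98 and 6.10 in allo mice, so every allo value lay below every syn value (difference -1.01, SE 0.34, adjusted p = 0.0310). Lce1b read 6.47, 6.78, 6.79 and 6.85 in syn and 5.71, 5.80, 5.92, 6.12 and 6.24 in allo mice, again without overlap (difference -0.76, SE 0.23, adjusted p = 0.0184). Lce1m (-0.98), Lce1a2 (-0.75), Lce1f (-0.66), Lce1a1 (-0.63) and Lce1d (-0.61) fell as well. Lce1g was the 1 Lce1 gene with a difference above 0 (0.41, adjusted p = 0.298). Its used probe read 2.75, 3.04, 3.13 and 3.48 in syn and 3.28, 3.48, 3.53, 3.53 and 3.74 in allo mice, which overlap. A second Lce1g probe, measured in 23 mice and not used, lay near 0 in every group (group means -0.16 to 0.15) and differed by -0.13.

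Lce3 genes, whose human counterparts rise after injury of the barrier, gave a ratio in few mice, and no test set them against Lce1. Lce3c read 1.56, 2.25 and 2.92 in 3 syn and 2.35, 4.78 and 5.21 in 3 allo Rag2-/- mice, which overlap (difference 1.87, SE 0.93, adjusted p = 0.149). A second Lce3c probe, not tested, read 3.48 and 3.67 in 2 syn and 3.71, 4.54, 4.57, 5.19 and 5.32 in 5 allo mice. Lce3f, not tested, read 1.25 in 1 syn mouse and 3.59, 3.96, 4.89, 4.98 and 6.03 in 5 allo mice. A missing ratio carries no direction here, since spot intensities were not analysed.

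**Figure D3:**
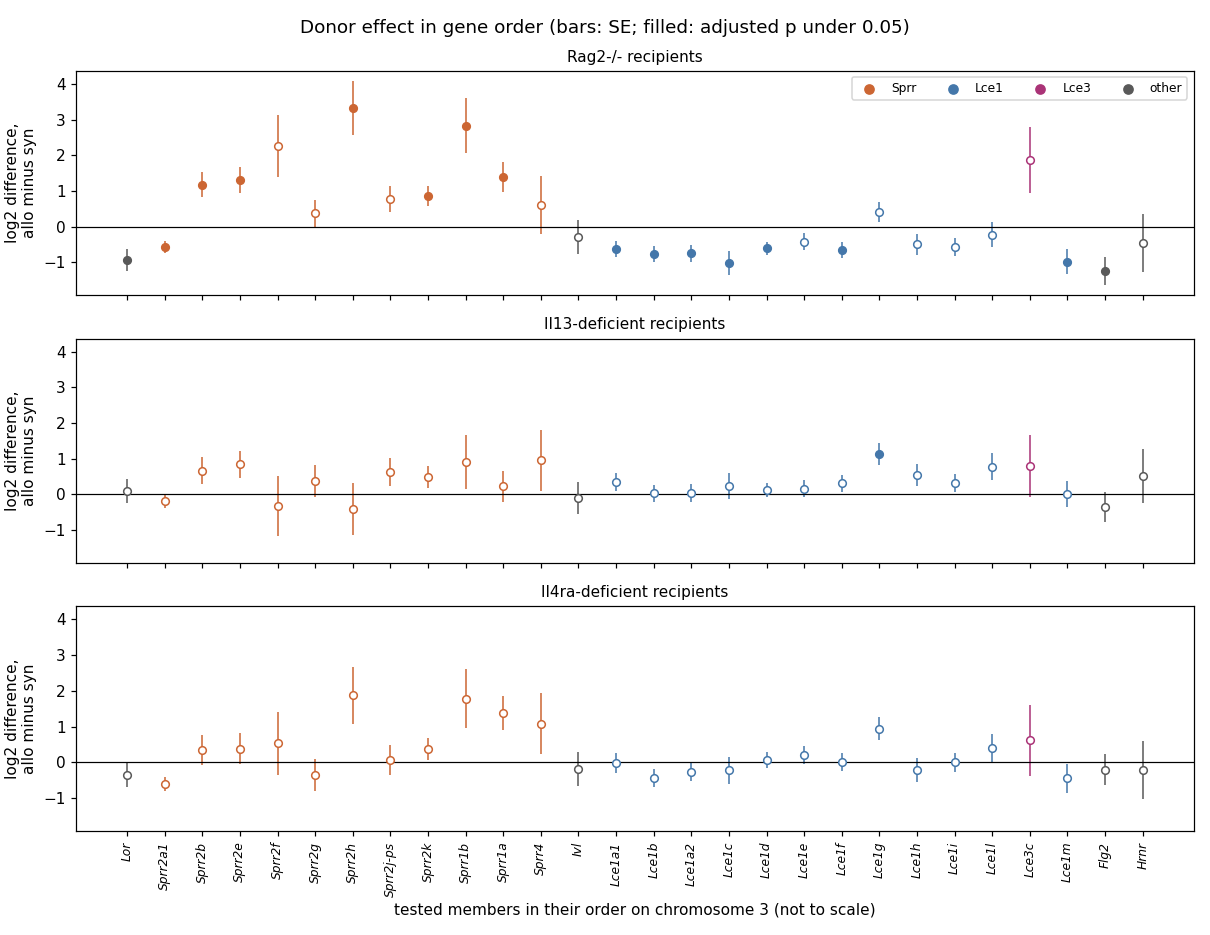
Difference in log2 (skin / reference) between allo and syn mice for the tested members of chromosome 3 in the order of the genes (not to scale), with the standard error as bars and filled points for an adjusted p under 0.05, in 3 kinds of recipient. In Rag2-/- recipients the Sprr run lies above 0 except Sprr2a1, and the Lce1 genes on its far side lie below 0 except Lce1g, with Lce3c above 0 among them.

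Among the other envelope precursors, loricrin fell and involucrin did not pass. Lor, a major structural protein of the mature envelope, read 6.71, 7.09, 7.56 and 7.69 in syn and 6.03, 6.18, 6.28, 6.33 and 6.84 in allo Rag2-/- mice. One allo mouse overlapped the syn range (difference -0.93, SE 0.31, adjusted p = 0.0290). Ivl, an early scaffold of the envelope, read 4.95, 5.21 and 5.87 in 3 syn and 4.66, 4.69, 5.33 and 5.55 in 4 allo mice (difference -0.29, SE 0.48, adjusted p = 0.703). Its 95% interval, -1.30 to 0.73, covers a change of either sign.

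The filaggrin family gave 1 fall among 2 tested genes. With 2 genes, beside 15.6% of all genes lower, this count is not a result about the family. Flg2, a filaggrin-like protein of the granular layer, read 7.34, 7.37, 7.61 and 9.35 in syn and 6.34, 6.36, 6.74, 6.87 and 7.04 in allo Rag2-/- mice, with no overlap (difference -1.25, SE 0.39, adjusted p = 0.0214). The value 9.35 belongs to mouse 6153, and without it the difference was -0.77 with an adjusted p of 0.111, and without mouse 5704 it was -1.16 with an adjusted p of 0.0514. Hrnr, a large S100-fused protein, read 7.63 and 7.85 in 2 syn and 7.10, 7.27, 7.36 and 7.43 in 4 allo mice (difference -0.45, SE 0.81, adjusted p = 0.724). A second Hrnr probe, not used, lay the other way, with means of 5.89 in 2 syn and 7.07 in 2 allo mice. Flg itself was not tested, and its values ran the other way from Flg2: 4.69, 5.82 and 5.84 in 3 syn and 5.83, 6.73, 6.80 and 6.90 in 4 allo mice. Rptn read 3.91 in 1 syn mouse and 2.73 to 6.17 in 5 allo mice.

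Keratins and secreted proteins of the suprabasal layers gave 3 falls among 5 tested genes in Rag2-/- recipients, where 15.6% of all genes were lower. These 5 genes were read in the same mice, so the falls are not separate results. Krt1, partner of Krt10 in suprabasal filaments, read 3.57, 3.57, 3.59 and 3.91 in syn and 2.94, 2.97, 3.11, 3.27 and 3.36 in allo mice (difference -0.53, SE 0.17, adjusted p = 0.0234). That level averages 2 probes of unlike ratio, with syn means of 0.36 and 6.96. The probes gave differences of -0.49 and -0.56, and neither passed alone (adjusted p = 0.363 and 0.276). Krt10 had a difference of -0.61 (SE 0.23) and an adjusted p of 0.0540. Krtdap, a secreted protein of differentiating keratinocytes, read 6.08, 6.55, 6.67 and 6.68 in syn and 5.41, 5.51, 5.68, 5.72 and 6.13 in allo mice, where 1 allo mouse exceeded the lowest syn mouse (difference -0.80, SE 0.24, adjusted p = 0.0175). Sbsn, suprabasin, read 5.72, 5.74, 5.88 and 5.97 in syn and 4.94, 5.07, 5.10, 5.33 and 5.44 in allo mice, without overlap (difference -0.65, SE 0.24), and lay just inside the threshold. Dmkn, dermokine, had a difference of -0.54 (adjusted p = 0.106). Krt2, a late suprabasal keratin that was not tested, ran upward, from 0.43, 0.94 and 1.38 in 3 syn to 1.84, 3.15, 3.36 and 3.52 in 4 allo mice.

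Enzymes and adhesion proteins of the barrier gave 1 call. Beside 12.6% of all genes higher and 15.6% lower, this count is not a result about these genes. Asprv1, a protease that trims profilaggrin, read 6.44, 6.80, 6.88 and 6.97 in syn and 5.87, 6.11, 6.17, 6.25 and 6.58 in allo Rag2-/- mice, with 1 allo mouse inside the syn range (difference -0.58, SE 0.21, adjusted p = 0.0465). Casp14, which takes part in filaggrin breakdown, differed by 0.05 (SE 0.46). The transglutaminases Tgm1 (-0.18, SE 0.25) and Tgm3 (1.15, SE 0.59, adjusted p = 0.160) did not pass. Neither did the corneodesmosome genes Cdsn (-0.18, SE 0.14) and Dsc1 (0.19, SE 0.34), nor Klk5 (-0.47) and Klk7 (-0.28), proteases that shed corneocytes. Spink5, which encodes their inhibitor LEKTI, differed by -0.80 (SE 0.35, adjusted p = 0.0889). The lipoxygenases Alox12b (-0.44) and Aloxe3 (-0.31) did not pass either. Abca12, which loads lipid granules and was not tested, read 6.68 and 6.86 in 2 syn and 6.21 and 6.78 in 2 allo mice. Its other 2 probes, not used, lay the other way. Means were 0.81 in 2 syn mice and 2.4 in 1 allo mouse for 1 of them. The other had 1.41 in 1 syn mouse and 2.11 in 2 allo mice. Dsg1a, a desmosomal cadherin, read 6.99 to 8.24 in 3 syn and 5.85 to 8.30 in 5 allo mice.

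Calls held to different extents. Sprr2h, Sprr1b and Sprr2e passed in every alternative that could be fitted for them (19, 19 and 20). Sprr1a kept its call in 20 of 21 alternatives, Sprr2b in 18 and Sprr2k in 15, and each lost it without mouse 6153. Among the falls, Flg2, Krtdap and Lce1b kept theirs in 17 of 21, Lor and Lce1c in 13, and Lce1a1 and Sbsn in 4. Within the mice numbered from 57, which hold 3 syn and 2 allo Rag2-/- mice, the same 6 Sprr genes were higher. None of the 7 Lce1 falls passed there, and 1 member, Flg2, was lower (-1.09, adjusted p = 0.0205), while the Lce1 median was -0.57. With quantile normalization, and likewise with the first array of each mouse, the 1 member called lower was Sprr2a1, whose direction depends on its probe, so that the other 13 falls lost their call. The Lce1 median was then -0.29 and -0.37. Of all genes, 26.7% and 28.1% were called in either direction in these 2 settings, and 26.1% within the mice numbered from 57. Without mouse 6153, 2 members were lower, where 22.4% of all genes were called in either direction. The 99th percentile over all genes was 5.59 to 5.89 in syn and 5.16 to 5.59 in allo Rag2-/- mice. This percentile thus tended to be lower in allo mice, with ranges that meet at 5.59, as the plot of family levels shows. By mean ratio among tested genes, members that fell ranged from percentile 99.9 (Flg2) and 99.8 (Lor) to 95.6 (Krt1) and 28.7 (Sprr2a1). The 99th percentile is taken over 19532 genes, with the members among them. Its part in the falls was not tested. Some other skin compartments were lower in the same comparison, where 15.6% of all genes were lower and 12.6% higher, and others were not. Adipocyte genes had 6 of 9 lower (median -1.12, mouse medians 5.30 to 5.93 in syn and 4.18 to 4.52 in allo mice), and skeletal muscle genes 6 of 11 (median -0.84; 5.94 to 6.50 and 5.22 to 5.88). Basal keratinocyte genes had 4 of 11 lower (median -0.49; 4.19 to 4.68 and 3.93 to 4.34). T cell and macrophage genes were 8 of 8 higher each, with medians of 3.18 and 2.39. The part of these shifts in the falls was not tested.

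**Figure D4:**
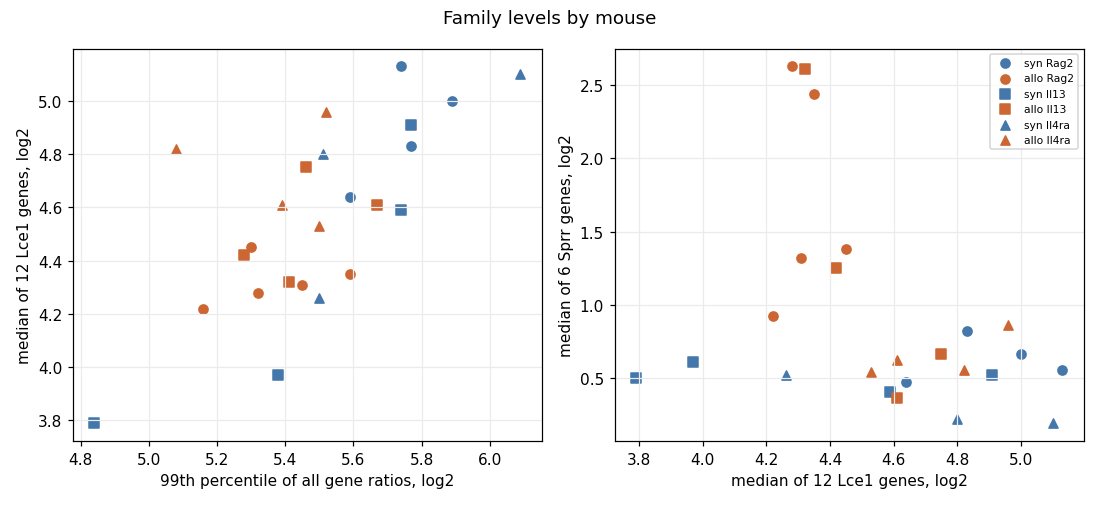
Left, median log2 (skin / reference) of the 12 Lce1 genes in each of 24 mice against the 99th percentile of that mouse's ratios over all genes; right, median of the 6 Sprr genes measured in all mice (Sprr1a, Sprr2a1, Sprr2b, Sprr2e, Sprr2j-ps and Sprr2k) against the Lce1 median. Allo Rag2-/- mice lie at Lce1 medians of 4.22 to 4.45 and syn Rag2-/- mice at 4.64 to 5.13, and 2 syn Il13-deficient mice have the lowest Lce1 medians.

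Loss of Il13 in the recipient was examined with the same donors. In Il13-deficient recipients 1 of 44 members was higher (9.17% of all genes) and 0 lower (7.1% of all genes), and 4 members had an unadjusted p under 0.05. The share of all genes at that unadjusted threshold was not computed, so such counts, here and below, are not a result about the members. The median member difference was 0.15, against -0.05 over all genes. The exception was Lce1g, at 1.66, 2.31, 3.36 and 3.52 in syn and 3.48, 3.82, 3.91 and 4.17 in allo mice. Its groups overlapped slightly (difference 1.13, SE 0.30, adjusted p = 0.0104). The low syn values belong to mice 6234 and 6229, and without these mice the difference was 0.41 (adjusted p = 0.265). It also missed the threshold with only the 2 Il13 groups in the fit (adjusted p = 0.175) and with exact 0 kept (0.131), and with all probes averaged the difference was 0.44. The second Lce1g probe, not used, differed by -0.26 in these recipients, so the call rests on 1 of 2 probes of unlike response.

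Other Sprr and Lce1 genes did not pass in these mice. Sprr2h read 1.17, 2.13, 2.37 and 4.59 in syn and 0.76, 1.03, 2.14 and 4.70 in allo Il13-deficient mice, a full overlap (difference -0.41, SE 0.73, 95% interval -1.94 to 1.12). Sprr1b read -0.45, 0.56, 1.49 and 3.0 in syn and 0.15, 0.97, 2.97 and 4.10 in allo mice (difference 0.90, SE 0.76, adjusted p = 0.480). The highest syn value of both genes came from mouse 6234 and the highest allo value from mouse 6224. All 12 Lce1 differences lay above 0 (0.01 to 1.13, median 0.27), of which Lce1g passed. Lor read 5.68, 6.21, 6.27 and 7.36 in syn and 6.28, 6.28, 6.35 and 7.02 in allo mice (difference 0.10, SE 0.33). Flg2 read 6.38, 6.97, 7.08 and 7.66 in syn and 5.44, 6.74, 7.07 and 7.43 in allo mice (difference -0.35, SE 0.41). Ivl had a difference of -0.11 (SE 0.45) and Flg, not tested, read 5.50, 5.90 and 6.85 in 3 syn and 6.41, 6.59 and 7.10 in 3 allo mice. Tgm3, an envelope transglutaminase also found in hair, read 1.40, 1.57, 2.33 and 4.53 in syn and 0.68 and 0.97 in 2 allo mice (difference -1.63, SE 0.70, adjusted p = 0.132).

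Mice 6229 and 6234 stood apart within the syn Il13-deficient group. Their Lce1 medians were 3.79 and 3.97, below the other 2 syn mice (4.59 and 4.91). Without both, 2 of 12 Lce1 differences lay above 0 and the Lce1 median turned to -0.20. The Sprr2h difference turned to 0.51 (adjusted p = 0.738), Sprr1a went from 0.23 to 1.19 (adjusted p = 0.0572) and Sprr4 from 0.96 to 2.23 (adjusted p = 0.0787). Over the 2 hair follicle genes measured in all mice, their medians were 3.29 and 4.21, against -0.15 and 0.58 in the other 2 syn mice and -1.13 to -1.01 in allo Il13-deficient mice. Of 12 hair follicle genes tested, 9 were lower in allo than in syn Il13-deficient mice (median -3.52). Melanocyte genes were 3 of 4 lower (median -2.53), with 1 of the list measured in all mice. Both shares are 75%, against 7.1% of all genes lower. The part of hair growth in the Lce1 and Sprr values was not tested.

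Loss of Il4ra gave Sprr differences of the same sign for most genes, without a call. In Il4ra-deficient recipients 0 of 44 members were higher (5.9% of all genes) and 1 was lower (3.29% of all genes), and 6 had an unadjusted p under 0.05. Sprr1a read 1.95, 2.24 and 2.25 in syn and 3.29, 3.35, 3.64 and 3.82 in allo mice. The groups did not overlap, but the test was missed (difference 1.38, SE 0.47, adjusted p = 0.0726). Sprr2h read -0.61, -0.08 and 0.29 in syn and 1.31, 1.33, 2.03 and 2.28 in allo mice (difference 1.87, SE 0.79, adjusted p = 0.147). Sprr1b read 0.18, 0.72 and 0.82 in syn and 1.13, 1.71, 3.27 and 3.30 in allo mice (difference 1.78, SE 0.82, adjusted p = 0.183). Every allo value of both lay above every syn value. Of the Sprr genes, 9 of 11 had a difference above 0 (median 0.38).

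None of the Lce1 genes, nor Lor, Flg2 or Krtdap, passed in Il4ra-deficient mice. Of 12 Lce1 genes, 6 had a difference above 0 (median -0.01), a count that was 11 within number series 57 (median 0.26), 9 with quantile normalization (0.22), 10 without mouse 4535 (0.15), 3 without 5718 (-0.08) and 2 without 5719 (-0.21). Lor read 6.4, 7.03 and 7.36 in syn and 6.01, 6.25, 6.96 and 7.12 in allo mice (difference -0.35, SE 0.35), and its 95% interval of -1.08 to 0.39 includes the Rag2-/- estimate of -0.93. Flg2 differed by -0.21 (SE 0.44), Ivl by -0.18 (SE 0.48) and Krtdap by -0.37 (SE 0.27). Flg read 6.25 in 1 syn mouse and 3.99, 5.72, 6.41 and 7.24 in allo mice. Lce1g read 2.94, 3.24 and 3.56 in syn and 3.97, 4.04, 4.08 and 4.63 in allo mice, without overlap (difference 0.94, SE 0.32, adjusted p = 0.0694). Its second probe, not used, differed by 0.06. The 1 fall was Dsc1, a desmosomal cadherin of the outer layers, at 6.79 and 6.93 in 2 syn and 4.38, 5.18 and 5.20 in 3 allo mice (difference -1.94, SE 0.41, adjusted p = 0.00859). It rests on 5 mice that gave a ratio. It was not called with exact 0 kept as a value (adjusted p = 0.838).

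Whether the donor effect itself differed between recipients was tested as an interaction, and no member passed. For Il13-deficient minus Rag2-/- recipients, 0 of 44 members and 0.0135% of all genes were called, and 17 members had an unadjusted p under 0.05. For Il4ra-deficient minus Rag2-/- recipients, 0 of 44 members and 0% of all genes were called, and 2 members had an unadjusted p under 0.05. The share of all genes at the unadjusted threshold was not computed, so neither count is a result about the members. The largest member interaction was that of Sprr2h with Il13, -3.73 (SE 1.05, 95% interval -5.92 to -1.53, adjusted p = 0.144). Tgm3 gave -2.79 (SE 0.91, adjusted p = 0.191), Lce1c 1.24 (SE 0.49, adjusted p = 0.236) and Lor 1.03 (SE 0.45, adjusted p = 0.271). With Il4ra, Sprr2h gave -1.45 (SE 1.10) and Lce1c 0.78 (SE 0.51), both at an adjusted p of 0.998, and Dsc1 -2.13 (SE 0.54, adjusted p = 0.747). All 12 Lce1 interactions lay above 0 with Il13 (0.58 to 1.24, median 0.92) and with Il4ra (0.27 to 0.78, median 0.59). Both use the same Rag2-/- mice, and the medians over all genes were 0.04 and 0.02. The 12 genes were read in the same few mice, so their shared sign is not 12 separate results. Without mice 6229 and 6234, 11 of 12 Lce1 interactions with Il13 lay above 0, with a median of 0.43. A difference of the donor effect between recipients is thus not shown for any member. The intervals of Sprr2h, Tgm3, Lce1c and Lor with Il13 lie on 1 side of 0. They are not adjusted for the number of genes, and these genes are among the 17 with an unadjusted p under 0.05. Tgm3 rests on 2 allo Il13-deficient mice, and its highest syn values there, 4.53 and 2.33, belong to mice 6234 and 6229. The Sprr2h donor difference in Il13-deficient recipients changed sign without these 2 syn mice.

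Recipients were also compared under the same donor. Among syn mice, Il13-deficient against Rag2-/- gave 0 of 44 member calls (0.283% of all genes), with 22 members at an unadjusted p under 0.05. No share of all genes at the unadjusted threshold stands beside the 22, so this count is not a result about the members. All 12 Lce1 differences lay below 0 there (-0.99 to -0.29, median -0.61), and Lor (-0.88, SE 0.33, adjusted p = 0.138) and Flg2 (-0.90, SE 0.41) did too. These genes were again read in the same mice and are not separate results. Sprr2h lay the other way (2.34, SE 0.79, adjusted p = 0.111), as did Tgm3 (2.31, SE 0.62, adjusted p = 0.0829). Both had groups that did not overlap. The highest Tgm3 values of Il13-deficient syn mice, 4.53 and 2.33, belong to mice 6234 and 6229, and the other 2 mice read 1.40 and 1.57. Leaving out mouse 6225 brought 7 member calls, with 12.4% of all genes called, and leaving out 6230 brought 8, with 6.65%. Without both 6229 and 6234 the Lce1 median was -0.22. Lists of other cells also lay away from 0 in the same comparison, with no gene called in these 4, at medians of -0.91 for skeletal muscle, -0.68 for adipocyte, -0.50 for basal keratinocyte and 3.67 for hair follicle genes, and their part was not tested. Among allo mice, Il13-deficient against Rag2-/- gave 0 of 44 calls (0% of all genes), and 0 members had an unadjusted p under 0.05. The Lce1 median was 0.20 and Sprr2h lay at -1.38 (SE 0.70). All Il13-deficient mice carry numbers from 62 and no Rag2-/- mouse does, so genotype and number series cannot be told apart in either comparison.

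Il4ra-deficient against Rag2-/- mice gave 0 of 44 member calls under syn cells (0% of all genes), with 1 member at an unadjusted p under 0.05. Under allo cells 0 of 44 were called (0.803% of all genes), with 11 members at an unadjusted p under 0.05. The share of all genes at the unadjusted threshold was not computed for either. In the allo comparison all 11 Sprr differences lay below 0 (median -0.99) and all 12 Lce1 differences above 0 (median 0.36). Genes of a family were read in the same mice, so these counts of signs are not separate results. T cell genes were lower in 3 of 8 there (median -1.24), hair follicle genes had a median of -0.81 and adipocyte genes of 0.59, and their part was not tested. Sprr2h lay at -1.80 (SE 0.70, adjusted p = 0.280) and Lce1g at 0.67 (SE 0.28, adjusted p = 0.331), the latter without overlap. The Lce1g value rests on 1 of its 2 probes. The Il4ra comparison spans mice numbered from 45, 57 and 61. With the number series as a block, 0 members were called in either.

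Other genes of cornification and its control were read from lists. Of 56 further cornification and barrier genes, 42 were tested. In Rag2-/- recipients 3 were higher and 11 lower (median -0.41), in Il13-deficient recipients 2 and 4, and in Il4ra-deficient recipients 0 and 1. As shares of the 42, these were 7.14% and 26.2%, against 12.6% and 15.6% of all genes, then 4.76% and 9.52% against 9.17% and 7.1%, and 0% and 2.38% against 5.9% and 3.29%. The Rag2-/- falls included Evpl (-0.68, SE 0.17) and Ppl (-0.93, SE 0.30), which encode the envelope scaffold proteins envoplakin and periplakin. Crct1 of the chromosome 3 cluster (-0.76, SE 0.25), Krt78 (-0.92, SE 0.25) and Cyp4f39 (-1.01, SE 0.36), which makes ultra-long acylceramides, fell too. Ugcg, glucosylceramide synthase (1.10, SE 0.23), Sptlc2, of the first step of ceramide synthesis (0.58, SE 0.17), and Padi2, a deiminase (1.31, SE 0.36), rose. Tjp1, a tight junction protein, was lower in all 3 recipients (-0.60, -0.70 and -0.59), which is 1 of 42 genes on the list.

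Of 30 tested regulators of differentiation, 5 were higher and 7 lower in Rag2-/- recipients (median -0.15, all genes -0.08). These are 16.7% and 23.3% of the list, near the 12.6% and 15.6% of all genes, so the genes named are single values and not a result about the list. Junb, an AP-1 subunit, rose by 1.45 (SE 0.22, adjusted p = 6.00e-05) and Cebpb by 1.24 (SE 0.19, adjusted p = 4.52e-05). Trp63, the master regulator of stratified epithelium (-1.33, SE 0.34), Grhl1, which drives desmosomal genes (-1.20, SE 0.24), and Barx2 (-1.17, SE 0.25) fell. In Il13-deficient recipients 1 was higher and 2 lower, and in Il4ra-deficient recipients 4 were higher and 0 lower. As shares these were 3.33% and 6.67% against 9.17% and 7.1% of all genes, and 13.3% and 0% against 5.9% and 3.29%. Junb (0.83, SE 0.25) and Cebpb (0.73, SE 0.21) were among the 4 higher in Il4ra-deficient recipients. Stress keratinocyte genes, not counting Sprr, had 4 higher and 1 lower of 9 in Rag2-/- recipients. These are 44.4% and 11.1%, against 12.6% and 15.6% of all genes. In Il13-deficient recipients 4 were higher (44.4%, all genes 9.17%) and in Il4ra-deficient recipients 2 (22.2%, all genes 5.9%), with 0 lower in either. Krt16, a keratin of wounded epidermis, was higher in Rag2-/- (1.88, SE 0.30), Il13-deficient (0.94, SE 0.32) and Il4ra-deficient recipients (1.91, SE 0.34).

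Of 16 tested genes of the epidermal response to IL-4 and IL-13, 6 were higher in Rag2-/-, 6 in Il13-deficient and 4 in Il4ra-deficient recipients, and 0 lower in each. As shares higher, these were 37.5%, 37.5% and 25%, against 12.6%, 9.17% and 5.9% of all genes. Socs1, a feedback inhibitor that interferon also induces, rose by 3.31 (SE 0.25), 2.66 (SE 0.26) and 3.58 (SE 0.28) in that order. Ccl17, a T cell chemokine, rose by 2.53 (SE 0.40), 2.07 (SE 0.43) and 2.53 (SE 0.46). Whether these rises differ between recipients was tested for each gene in the interaction, where 0 of the 16 passed with Il13 or with Il4ra.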

How the data were processed

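The authors deposited 1 log2 ratio per probe and array. RNA was extracted with Trizol, cleaned on columns and linearly amplified, with Cy3 on the skin sample and Cy5 on the reference, per the labels. No source used here names the scanner software, the background correction or the normalization. The sign was turned so that values are skin over reference. This direction rests on the dyes and on gene lists (16 of 16 epidermal genes above 0 after turning, 3 of 10 of dividing and embryonic cells). The log base was read from spacings among recurring dim values (log2 spacings in 57, 46 and 38 of 5320 pairs, natural log in 7, 18 and 16, log10 in 24, 32 and 23). Array pairs correlated at 0.607 to 0.965 across probes. An exact 0 (2.42% to 36.8% of probes per array) and 450 blanks were taken as missing, which the labels do not state. The number of mice limits the precision, and spot intensities were not analysed.

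Arrays of 1 mouse were averaged (3 of mouse 5702, 2 each of 5703 and 6232). Mouse 5718, labelled IL14Ra, was taken as Il4ra-deficient, the 1 receptor the design names. Of 41174 probes, 32664 had 1 gene symbol, 45 several and 8465 none. Probes of a gene with the fewest missing mice, and missing in the same ones, were averaged. The 6 groups were modelled in limma (version 3.58.1, R 4.3.3; lmFit and eBayes, two-sided, Benjamini-Hochberg over 14822 genes). Members and lists were chosen with earlier results of these data known. Values in every mouse are given for up to 3 members of each role with the smallest p and always for Flg, Lor and Ivl; treating Sprr, Lce1 and Lce3 as families, and the further Sprr and Lce genes shown, were chosen after values were seen. Alternatives covered exact 0, normalization, centring, probe choice, filters, repeated arrays, number series and each mouse left out.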

Additional observations from a re-analysis of the deposited data

Results flagged for a closer look

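Among 91 groups of 4 or 5 mice of 22 members shown, 6 held a mouse far from the others by Dixon's criterion, where chance gives about 1 in 20. These were Lor at 7.02 in mouse 6232 (allo, Il13-deficient), Flg at 5.83 in mouse 5701 (allo Rag2-/-), Flg2 at 9.35 in mouse 6153 (syn Rag2-/-), Lce1g at 4.63 in mouse 5718 (allo, Il4ra-deficient), Krt1 at 3.91 in mouse 5703 (syn Rag2-/-) and Spink5 at 7.55 in mouse 6230 (syn, Il13-deficient). The Flg2 call in Rag2-/- recipients was lost without mouse 6153 or 5704. The Krt1 call was lost without mouse 5703 as well as without 5701 or 6154.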

How the results depend on the processing

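Members tested were 44 in the main setting, 52 with exact 0 kept and 38 with dim repeated values missing. They were 41 with the first array of each mouse and 37 within series 57, so the counts are not like for like. The 6 members higher in Rag2-/- recipients became 10 with exact 0 kept and 3 with dim repeated values missing, where Sprr2h, Sprr1b and Sprr2e could not be fitted. The 14 lower became 8 with exact 0 kept, 1 with quantile normalization and 1 with the first array of each mouse (Sprr2a1 in both, so all 13 other falls lost their call), 1 within number series 57 and 9 with the highest-ratio probe of each gene. Leaving out 1 mouse gave 3 to 7 higher and 2 to 14 lower (2 without 6153, 4 without 5700, 6 without 5704, 7 without 5703 or 6152, 8 without 5701). All genes called in either direction in Rag2-/- recipients were 28.1% in the main setting, 15.7% with exact 0 kept and 39.3% with dim repeated values missing. They were 26.7% with quantile normalization, 28.1% with the first array, 26.1% within series 57 and 26.6% with the highest-ratio probe. Without 1 mouse they were 19.9% to 30.1%. In Il13-deficient recipients the 1 higher became 2 with the highest-ratio probe and 0 with only the groups compared. It became 0 without mice 6229 and 6234, and 1 to 3 without 1 mouse. With exact 0 kept, 1 was lower. All genes called there were 16.3% in the main setting, 14.1% with the highest-ratio probe and 4.93% with only the groups compared. They were 10% without mice 6229 and 6234, 9.83% with exact 0 kept and 12% to 19.6% without 1 mouse. In Il4ra-deficient recipients the 0 higher became 1 with quantile normalization, all probes averaged, dim repeated values missing or the highest-ratio probe, 2 within series 57 and 3 with only the groups compared. The 1 lower became 0 with exact 0 kept or within series 57, 2 with quantile normalization, dim repeated values missing or only the groups compared, and 0 to 1 without 1 mouse (0 without 4535 or 5719, where Dsc1 had too few mice to be fitted). All genes called in Il4ra-deficient recipients were 9.19% in the main setting, 4.51% with exact 0 kept and 8.5% with quantile normalization. They were 6.58% with all probes averaged, 14% with dim repeated values missing and 8.06% with the highest-ratio probe. Within series 57 they were 5.64%, with only the groups compared 13%, and without 1 mouse 4.19% to 7.56%. Leaving out 1 mouse gave 0 to 1 interaction calls with Il13 (0% to 5.79% of all genes). It gave 0 to 8 calls for Il13-deficient against Rag2-/- syn mice (0% to 12.4%). For Il4ra-deficient against Rag2-/- allo mice it gave 0 to 1 (0.0407% to 0.717%). Asprv1 turned to 0.01 in Rag2-/- recipients with quantile normalization. Sprr2a1 turned to 0.97, 0.93 and 1.98 in Rag2-/- and to 0.86, 0.86 and 1.91 in Il13-deficient recipients with exact 0 kept, all probes averaged and the highest-ratio probe, and to 0.90 and 2.49 with the last 2 in Il4ra-deficient recipients. For Sprr2a1 the other probe enters by construction; elsewhere the cause was not tested. Over the alternatives, the adjusted p of Sprr2h in Rag2-/- recipients ran from 0.000728 to 0.0136 and of Lor from 0.0151 to 0.388. The highest-ratio probe and series 57 alternatives were chosen after seeing the data. No paired analysis was possible because the groups share no replicate numbers.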
